A study of Homo sapiens with 6 samples.

Results

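The SLC25A genes encode the mitochondrial carrier family, and all genes of the count table whose symbol begins with SLC25A and a digit were taken as members, which gave 48 of 20030 genes. Their mRNA was compared in HepG2, an established human hepatoma line, between cells carrying a control short hairpin RNA (sh-ctrl, 3 libraries) and cells carrying a hairpin against KIF11 (sh-KIF11, 3 libraries), the kinesin motor that pushes spindle poles apart in mitosis. The study made these cells to ask how loss of KIF11 bears on senescence of hepatoma cells, and delivered its hairpins with a lentiviral vector. No other allele or agent is given in the labels, and no source says that the libraries came from separate cultures, so the p-values measure the spread between these libraries, which may be technical. With a single comparison of hairpins in a single line, effects of the hairpin itself and of lower KIF11 cannot be told apart.

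Carriers of this family sit mostly in the inner mitochondrial membrane, where each exchanges or imports a particular set of solutes, such as adenine nucleotides, phosphate, citrate, amino acids, cofactors or metal ions. They link the matrix to the cytosol: ADP goes in and ATP comes out, citrate leaves for lipid synthesis, and aspartate and malate carry reducing equivalents. In hepatocytes they also serve urea synthesis and the entry of acylcarnitines for fat oxidation. Most of the carriers lack the cleaved targeting signal that many other mitochondrial proteins have, and they are inserted by a dedicated set of small chaperones and a translocase of the inner membrane.

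The libraries held between 18167773 and 19583282 counts, and 3 counts, the most that a count of 0 still allows, were worth between 0.145 and 0.178 CPM (TMM-normalized counts relative to library size), for counting error only. KIF11 itself had 111, 116 and 121 CPM in sh-ctrl and 72.2, 71.4 and 62.9 CPM in sh-KIF11 (log2 fold change -0.75, standard error 0.0573, adjusted p = 4.22e-15). The cell type was checked by 10 hepatocyte markers, whose summed level was 36066 to 37787 CPM in sh-ctrl and 15593 to 16892 CPM in sh-KIF11, with 9 of the 10 lower, 1 (TTR) not called and none at 0. The 5 fibroblast markers summed to 2.55 to 3.88 CPM in sh-ctrl and 1.40 to 2.04 CPM in sh-KIF11, with DCN at 0 in all 6 libraries. PDGFRB, the only marker of this list that was tested, was lower (log2 fold change -1.16, adjusted p = 6.36e-05). The 3 endothelial markers summed to 3.10 to 3.56 CPM in sh-ctrl and 4.69 to 4.98 CPM in sh-KIF11, with VWF higher (log2 fold change 1.01, adjusted p = 0.000342), PECAM1 not called and CDH5 at no more than 2 counts. The 4 leukocyte markers summed to 78.0 to 89.1 CPM in sh-ctrl and 41.8 to 46.2 CPM in sh-KIF11, nearly all of it CD68, while PTPRC and CD3E had at most 3 counts in any library. The part of these marker differences in the carrier results was not tested. In bulk RNA, fewer cells of a type and less RNA per cell cannot be told apart.

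Of the 48 members, 41 passed the filter on low counts and were tested. Of these 41, 19 were lower in sh-KIF11, 9 were higher and 13 were not called (edgeR, quasi-likelihood test, threshold of 0.05 on p adjusted by Benjamini-Hochberg across every tested gene). The 28 called members were 68.3% of those tested, beside 69.1% of all 12369 tested genes, so the share of called carriers was close to the background. The directions were 46.3% lower and 22.0% higher among the members, beside 34.7% and 34.4% of all tested genes. The libraries of both groups did not overlap in 33 members (80.5%), beside 71.2% of all tested genes. The median log2 fold change of the 41 members was -0.21, with quartiles of -0.53 and 0.20, whereas that of all tested genes was 0.00 with quartiles of -0.31 and 0.36. Among the called members SLC25A42 and SLC25A33 fell by at least 2-fold. SLC25A21 and SLC25A27 rose by as much, but passed the filter on low counts only through their sh-KIF11 libraries. These 4 were 9.76% of the members tested, beside 11.7% of all tested genes. These directions depend on the scaling: library totals alone moved the median of all tested genes to 0.24, that of the members to 0.02, and the split of called members to 14 lower and 14 higher, and upper-quartile normalization gave 17 lower and 13 higher. The limma fits on log2(FPKM + 1) and log2(FPKM + 0.1), which differ in unit, model and genes tested as well, gave 15 lower and 14 higher. The distance between the median of the members and the median of all genes was -0.22 under TMM, RLE, upper-quartile and total scaling alike. It was -0.06 and -0.17 in the fits on log2(FPKM + 1) and log2(FPKM + 0.1). Without a low-count filter it was -0.27, with DESeq2 -0.26, and with 1 library left out from -0.26 to -0.17. Another scaling shifts every log2 fold change by nearly the same amount, so the equal distances over scalings were fixed in advance. Each change given below is thus one against the middle of all tested genes.

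**Figure D1:**
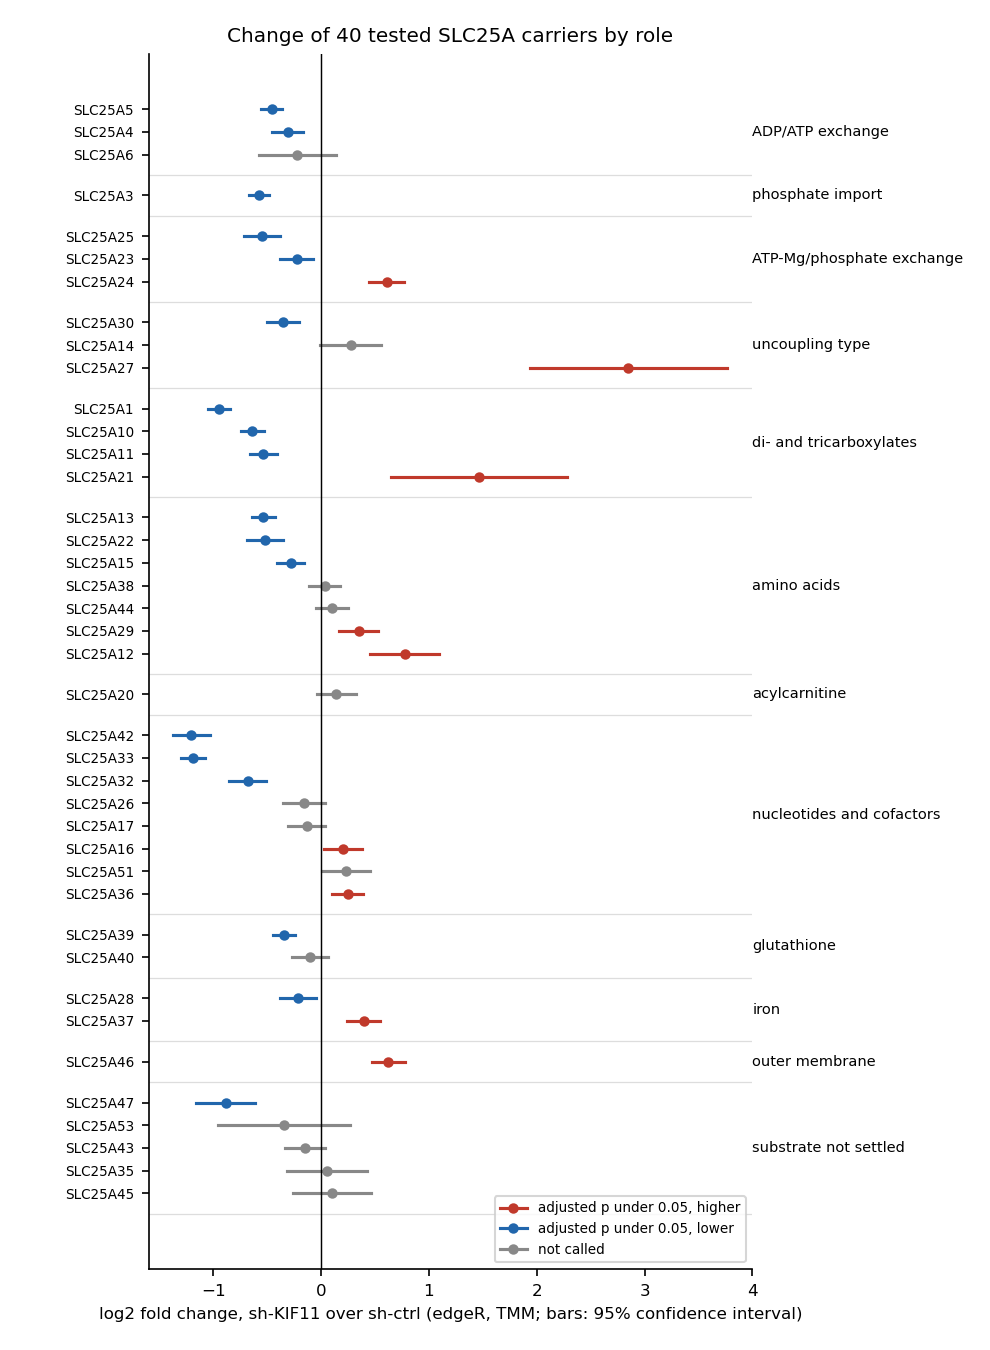
Log2 fold change of 40 tested carriers (x axis, sh-KIF11 over sh-ctrl) with its 95% confidence interval, grouped by role (right) and coloured by the edgeR call. The members called lower sit left of 0, led by SLC25A42 at -1.20 and SLC25A33 at -1.19. Those called higher reach 2.85 for SLC25A27, which like SLC25A21 passed the filter on low counts only through its sh-KIF11 libraries. Of the called members, SLC25A23 and SLC25A28 lie on the other side of 0 under library totals alone. That scaling moved the median of all tested genes from 0.00 to 0.24, and members not called were not followed one by one.

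The ADP/ATP carriers and the phosphate carrier supply the ATP synthase with its substrates, and 3 of their 4 tested genes fell. SLC25A5, the ADP/ATP carrier of proliferating cells and the most abundant member per length (342 FPKM in sh-ctrl), had 415, 402 and 384 CPM in sh-ctrl and 294, 297 and 285 CPM in sh-KIF11. No sh-KIF11 library reached the lowest sh-ctrl library, and its level fell by 27.1% (log2 fold change -0.46, standard error 0.0482, adjusted p = 4.64e-11). SLC25A4, the form of heart and muscle, went from 44.8 ± 2.31 to 36.2 ± 1.30 CPM (SD, n = 3 each; log2 fold change -0.31, adjusted p = 0.000211), a call that was lost under library totals alone and in both fits on FPKM. SLC25A3, which imports the phosphate, had 626, 612 and 629.7 CPM in sh-ctrl and 419.8, 423 and 411 CPM in sh-KIF11, with no overlap and a fall of 32.9% (log2 fold change -0.58, standard error 0.0468, adjusted p = 2.79e-14). SLC25A6, a further ADP/ATP carrier, was counted 118, 68 and 87 times in the sh-ctrl libraries and 79, 97 and 93 times in the others, and was not called (adjusted p = 0.275). Its count is uncertain, since the gene is annotated at the same position of X and Y (1386152 to 1392724) and other genes listed on both chromosomes were erratic within a group, such as CD99 with 94, 102 and 1874 counts in the sh-ctrl libraries. GENCODE 29 also lists 9 pseudogenes named after SLC25A5 and 6 named after SLC25A6, and how reads matching several copies were counted is not given in the sources used here. SLC25A31, the testis form, had 1 count over all 6 libraries.

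The ATP-Mg/phosphate carriers are switched by calcium and set the size of the adenine nucleotide pool of the matrix. Their 3 tested genes split in direction. SLC25A24 had 24.8, 25.5 and 30.9 CPM in sh-ctrl and 38.2, 40.9 and 44.5 CPM in sh-KIF11, so that every sh-KIF11 library was higher, by 52.3% on average (log2 fold change 0.61, standard error 0.0814, adjusted p = 1.55e-08). SLC25A25 had 28.5, 25.9 and 27.8 CPM in sh-ctrl and 17.3, 19.4 and 19.6 CPM in sh-KIF11, without overlap and in the opposite direction (log2 fold change -0.54, standard error 0.0828, adjusted p = 2.49e-07). SLC25A23 went from 40.5 ± 1.76 to 34.6 ± 2.28 CPM (SD, n = 3 each; log2 fold change -0.23, adjusted p = 0.00628), a difference that was not called with upper-quartile normalization and was 0.00 under library totals alone and in both fits on FPKM. The carriers of the uncoupling type, named for their kinship with the brown fat uncoupling protein, were mixed too. SLC25A27, a form best known from brain, had only 4, 4 and 2 counts in sh-ctrl and 33, 22 and 30 counts in sh-KIF11, and rose from 0.188 ± 0.0603 to 1.41 ± 0.307 CPM (SD, n = 3 each; log2 fold change 2.85, 95% confidence interval 1.94 to 3.76, adjusted p = 5.54e-07). It and SLC25A21 passed the filter on low counts only through the sh-KIF11 libraries, where they are high, so their calls follow in part from that filter; with no filter their adjusted p were 2.24e-08 and 0.000414. Both lay under the mean of 1 CPM set for genes with values by library and were singled out after their values were seen. SLC25A30, a carrier of anions and sulfur compounds, fell from 61.7 ± 8.72 to 48.3 ± 3.26 CPM (log2 fold change -0.35, adjusted p = 5.98e-05), a call lost under library totals alone and in both fits on FPKM, and SLC25A14 had a log2 fold change of 0.28 that was not called (adjusted p = 0.0773).

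Among the carriers of di- and tricarboxylates, the 3 abundant genes fell. SLC25A1, which exports citrate from the matrix for fatty acid and sterol synthesis, had 245, 230.3 and 223 CPM in sh-ctrl and 122, 123 and 119 CPM in sh-KIF11. The groups were far apart for a spread of 11.3 and 2.12 CPM (SD, n = 3 each), and the level fell by 48.0% (log2 fold change -0.94, standard error 0.0507, adjusted p = 5.16e-20). SLC25A10, the dicarboxylate carrier that exchanges malate or succinate for phosphate, had 187, 176 and 165 CPM in sh-ctrl and 116, 113 and 110.3 CPM in sh-KIF11, again without overlap (log2 fold change -0.64, standard error 0.0524, adjusted p = 3.87e-14). In GENCODE 29 another gene on the same strand, AC139530.2, covers 46.6% of its exon bases, so this count carries some uncertainty. The count table holds no row named AC139530.2. SLC25A11, the oxoglutarate/malate carrier of the malate-aspartate shuttle, went from 69.2 ± 3.33 to 47.7 ± 1.88 CPM (SD, n = 3 each; log2 fold change -0.54, adjusted p = 6.64e-10). SLC25A21, which carries oxodicarboxylates of lysine breakdown, was counted 3, 19 and 5 times in sh-ctrl and 26, 35 and 25 times in sh-KIF11 (log2 fold change 1.46, standard error 0.403, adjusted p = 0.00149). This value rests on few reads of a gene that passed the filter through its sh-KIF11 libraries, and without the library sh-ctrl 2, the highest of its group, it was 2.59, and 0.26 in the fit on log2(FPKM + 1).

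Of the 7 tested amino acid carriers, 3 fell, 2 rose and 2 were not called. The aspartate/glutamate carriers moved in opposite directions. SLC25A13 (citrin), the liver form that feeds aspartate to the urea cycle, had 140.2, 143 and 157 CPM in sh-ctrl and 100.1, 102 and 102 CPM in sh-KIF11, with no overlap (log2 fold change -0.53, standard error 0.0526, adjusted p = 6.82e-12). SLC25A12 (aralar), the form of brain and muscle, had 4.04, 3.55 and 5.39 CPM in sh-ctrl and 6.93, 7.29 and 7.91 CPM in sh-KIF11, higher in every sh-KIF11 library (log2 fold change 0.77, standard error 0.158, adjusted p = 3.76e-05), and its exons share 3.50% of their bases with METAP1D on the opposite strand. SLC25A22, a glutamate carrier, fell from 28.9 ± 2.80 to 20.1 ± 0.0773 CPM (log2 fold change -0.52, adjusted p = 4.94e-07). SLC25A15, the ornithine carrier of the urea cycle, fell from 68.1 ± 1.58 to 56.0 ± 2.04 CPM (log2 fold change -0.28, adjusted p = 6.79e-05), which was not called under library totals alone. SLC25A29, a carrier of basic amino acids, had 16.2, 17.95 and 15.05 CPM in sh-ctrl and 22.6, 20.05 and 20.1 CPM in sh-KIF11, again apart (log2 fold change 0.35, standard error 0.0905, adjusted p = 0.000796). The glycine carrier SLC25A38 and SLC25A44, a carrier of branched-chain amino acids, had log2 fold changes of 0.03 and 0.10, with 95% confidence intervals of -0.11 to 0.18 and -0.05 to 0.25.

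The carriers of nucleotides and cofactors held the strongest falls of the family. SLC25A42, which imports coenzyme A, lies on chromosome 19 from 19063999 to 19112888 (GRCh38, plus strand) and had 32.6, 31.7 and 30.8 CPM in sh-ctrl and 14.9, 14.1 and 12.3 CPM in sh-KIF11. The highest sh-KIF11 library was thus under the lowest sh-ctrl library by a wide margin, and the level fell by 56.6% (log2 fold change -1.20, standard error 0.0858, adjusted p = 4.89e-16). SLC25A33, a carrier of pyrimidine nucleotides on chromosome 1 from 9539482 to 9585179 (plus strand), had 128, 119.9 and 129 CPM in sh-ctrl and 57.6, 54.7 and 53.5 CPM in sh-KIF11. It fell by 56.1% (log2 fold change -1.19, standard error 0.0556, adjusted p = 4.92e-22). SLC25A36, its closest relative with the same class of substrates, lies on chromosome 3 from 140941830 to 140980961 (plus strand) and had 38.8, 39.6 and 40.3 CPM in sh-ctrl and 44.3, 46.2 and 50.2 CPM in sh-KIF11, which is a rise of 18.6% without overlap (log2 fold change 0.25, standard error 0.0700, adjusted p = 0.00208). SLC25A32, a folate and flavin carrier, had 33.6, 31.3 and 39.3 CPM in sh-ctrl and 22.9, 20.9 and 21.1 CPM in sh-KIF11 (log2 fold change -0.68, standard error 0.0831, adjusted p = 1.79e-09), but 69.7% of its exon bases lie in another gene on the same strand, AC012213.5. The count table holds no row named AC012213.5. SLC25A16, which is linked to coenzyme A as well, had 16.8, 18.2 and 19.4 CPM in sh-ctrl and 22.1, 20.4 and 19.9 CPM in sh-KIF11 (log2 fold change 0.20, adjusted p = 0.0384). That small rise lost its call with DESeq2, without a low-count filter, and without any of the libraries sh-ctrl 1, sh-ctrl 2, sh-KIF11 1 or sh-KIF11 2, with log2 fold changes from 0.15 to 0.21. The peroxisomal carrier SLC25A17, the S-adenosylmethionine carrier SLC25A26 and the NAD carrier SLC25A51 were not called, with log2 fold changes of -0.13, -0.16 and 0.23.

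The bases before the start sites of SLC25A33 and SLC25A36, the pair of pyrimidine carriers that went opposite ways, and of SLC25A42, the member with the largest fall, are shown to let a reader compare them. They come from RefSeq (GRCh38.p14), run 5′ to 3′ on the strand of the gene, and leave out any base that GENCODE 29 annotates as exon. The stretches lie at chr1:9539215-9539464, chr3:140941586-140941829 and chr19:19063744-19063993. Capitals mark matches on either strand to the E-box CACGTG, the CCAAT box CCAAT, the GC box GGGCGG or the cAMP response element TGACGTCA, and no marked match overlaps another.
SLC25A33: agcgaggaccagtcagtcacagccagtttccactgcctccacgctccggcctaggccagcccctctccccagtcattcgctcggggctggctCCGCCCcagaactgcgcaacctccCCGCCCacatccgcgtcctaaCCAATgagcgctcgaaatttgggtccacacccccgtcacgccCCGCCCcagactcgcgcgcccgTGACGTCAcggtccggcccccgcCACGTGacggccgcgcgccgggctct
SLC25A36: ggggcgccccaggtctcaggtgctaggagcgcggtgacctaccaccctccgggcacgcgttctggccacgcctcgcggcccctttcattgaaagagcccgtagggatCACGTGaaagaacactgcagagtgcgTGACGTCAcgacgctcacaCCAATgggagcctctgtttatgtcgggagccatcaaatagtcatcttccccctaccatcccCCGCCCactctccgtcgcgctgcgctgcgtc
SLC25A42: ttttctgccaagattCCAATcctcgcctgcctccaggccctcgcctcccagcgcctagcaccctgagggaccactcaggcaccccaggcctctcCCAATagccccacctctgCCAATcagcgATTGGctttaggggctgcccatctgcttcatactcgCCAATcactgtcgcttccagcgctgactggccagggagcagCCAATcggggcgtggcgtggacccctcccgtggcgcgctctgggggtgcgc
Both pyrimidine carriers held an E-box, a CCAAT box, a GC box and a cAMP response element in this window. Any part of these motifs in the changes of their mRNAs was not tested. In SLC25A33 the cAMP response element ended 42 bases and the E-box 21 bases before the start, and in SLC25A36 they ended 110 and 138 bases before it. The SLC25A42 stretch held none of these 3 other motifs but 6 CCAAT matches, a number reached by 18 of the 10111 tested genes with a listed start (0.178%), which was looked up after the letters were seen. Starts were listed for 40 of the 48 members, 35 of them tested, and for genes with several starts a match in any of the 250-base windows was counted. The CCAAT box was found in 19 of the 35 tested members (54.3%), beside 41.9% of the 10111 genes, and 10 of these 19 were lower, 4 higher and 5 not called. The E-box was found in 7 members (20%, beside 11.4% of genes), with 2 lower, 2 higher and 3 not called, and the ETS site CCGGAAG in 11 (31.4%, beside 19.2%), with 4 lower, 2 higher and 5 not called. Of all 41 tested members 46.3% were lower and 22% higher. The calls of other genes with these motifs were not counted, so no link between motif and direction can be read from them. The GC box stood before 27 members (77.1%, beside 74.5%) and the cAMP response element before 3 (8.57%, beside 3.47%). The core GCATGCGC, read by the nuclear respiratory factor NRF1, and the site AAGGTCA of estrogen-related receptors had no match in these windows of the tested members, beside 5.76% and 3.54% of genes. A match of letters describes the sequence and is not evidence of binding.

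The glutathione carriers guard the matrix against oxidants. SLC25A39, the abundant form, had 288, 277 and 261 CPM in sh-ctrl and 226, 211 and 212 CPM in sh-KIF11, a fall of 21.3% without overlap (log2 fold change -0.35, standard error 0.0501, adjusted p = 8.76e-08), while SLC25A40 had a log2 fold change of -0.10 that was not called (adjusted p = 0.278). The mitoferrins import iron for heme and iron-sulfur clusters, and SLC25A37 had 30.5, 28.8 and 28.8 CPM in sh-ctrl and 35.5, 40.5 and 40.1 CPM in sh-KIF11, higher in every sh-KIF11 library (log2 fold change 0.40, standard error 0.0756, adjusted p = 1.29e-05). SLC25A28, the other mitoferrin, went from 22.3 ± 0.199 to 19.2 ± 0.926 CPM (SD, n = 3 each; log2 fold change -0.21, adjusted p = 0.0216). Its call was lost in 7 alternatives, and library totals alone turned its direction to 0.02. SLC25A46 stands apart in the family because it sits in the outer membrane and acts in mitochondrial fusion and cristae shape rather than in transport. It had 30.6, 27.7 and 32.6 CPM in sh-ctrl and 49.0, 47.2 and 43.6 CPM in sh-KIF11, with a wide gap between the groups and a rise of 53.8% (log2 fold change 0.62, standard error 0.0758, adjusted p = 1.73e-09). The carnitine/acylcarnitine carrier SLC25A20, which brings fatty acids to oxidation, overlapped between the groups (24.3 ± 2.06 and 26.8 ± 3.97 CPM, log2 fold change 0.14, adjusted p = 0.159). SLC25A47, an orphan carrier expressed mainly in liver, had 10.3, 8.37 and 11.1 CPM in sh-ctrl and 5.08, 5.65 and 5.37 CPM in sh-KIF11, again apart (log2 fold change -0.88, standard error 0.135, adjusted p = 2.83e-07). The summed level of the 10 hepatocyte markers was lower in sh-KIF11 as well, and a link between them and SLC25A47 was not tested. The other carriers without a settled substrate that could be tested, SLC25A35, SLC25A43, SLC25A45 and SLC25A53, were not called, with log2 fold changes between -0.34 and 0.10. For SLC25A53 the deposited units differed in direction, with 1.54 and 1.21 CPM but 0.0324 and 0.0707 FPKM in sh-ctrl and sh-KIF11.

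**Figure D2:**
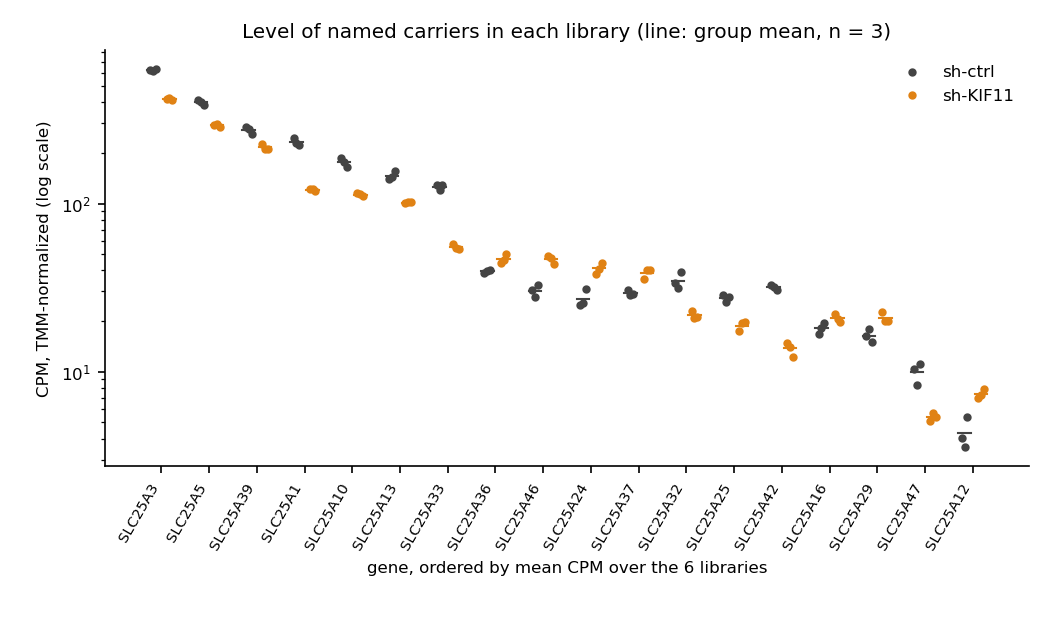
Level of 18 carriers named by the rule in each of the 6 libraries (y axis, TMM-normalized CPM on a log scale), with a line at each group mean. In every gene shown the 3 sh-KIF11 points lie on one side of the 3 sh-ctrl points, from SLC25A3 at a mean of 418 CPM in sh-KIF11 down to SLC25A47 at 5.37 CPM. Most of these genes were chosen for their change, which favours such separation, and 71.2% of all tested genes did not overlap either.

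Several members are close relatives or share a substrate, and the ratio of their FPKM within a library does not depend on how libraries are scaled to each other. It does depend on the unit. The log2 change of SLC25A42/SLC25A16 was -1.55 from FPKM and -1.41 from counts, and that of SLC25A33/SLC25A36 was -1.32 and -1.43. Of 17 such pairs listed, both genes were tested in 13, and in 10 of these the ratios of the groups did not overlap. Since the levels of 71.2% of all tested genes did not overlap either, and no other gene pairs were compared, this count describes the listed pairs alone. With 3 libraries against 3, an exact permutation test (two-sided) cannot go below p = 0.1, the value these 10 pairs had (0.13 after Benjamini-Hochberg adjustment over the 13 pairs). The SLC25A42/SLC25A16 ratio was 1.72, 1.42 and 1.57 in sh-ctrl but 0.549, 0.569 and 0.492 in sh-KIF11. The more abundant gene of this pair per length in sh-ctrl was thus the less abundant one in sh-KIF11. The SLC25A33/SLC25A36 ratio went from 6.95, 6.74 and 6.99 to 3.09, 2.70 and 2.54, a log2 change of -1.32. The SLC25A12/SLC25A13 ratio rose from 0.0320, 0.0232 and 0.0332 to 0.0655, 0.0736 and 0.0756. Citrin mRNA thus remained far above aralar mRNA per length in every library, although the ratio grew 2.45-fold. The SLC25A25/SLC25A24 ratio fell from 0.611, 0.555 and 0.457 to 0.261, 0.257 and 0.231 (log2 change -1.11), and that of SLC25A23 to SLC25A24 from 0.930 ± 0.151 to 0.552 ± 0.0241 (SD, n = 3 each). The mitoferrin ratio SLC25A37/SLC25A28 rose from 1.23 ± 0.0691 to 2.09 ± 0.429. By contrast, the ratios among the ADP/ATP carriers overlapped between the groups. Those with SLC25A6 rest on its uncertain count and cannot show that the balance was kept. SLC25A4/SLC25A5 was 0.0248 ± 0.00180 in sh-ctrl and 0.0261 ± 0.000836 in sh-KIF11 (exact permutation test, two-sided, p = 0.4), a log2 change of 0.08.

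**Figure D3:**
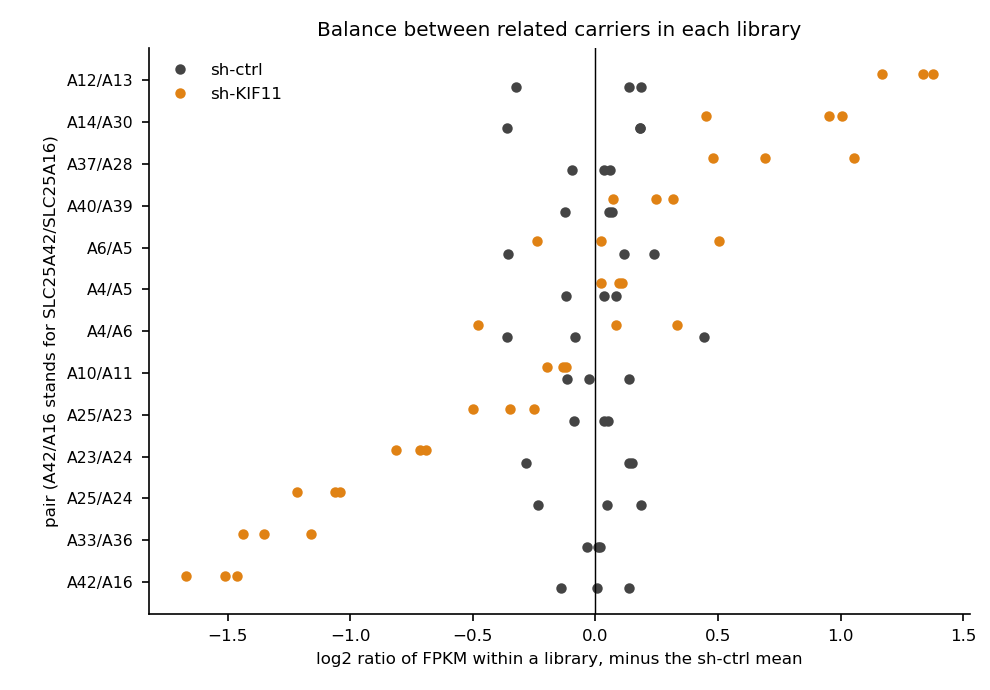
Log2 ratio of FPKM between the genes of 13 pairs in each library (x axis), with the sh-ctrl mean of each pair set to 0. The 3 sh-KIF11 points of SLC25A42/SLC25A16, SLC25A33/SLC25A36 and SLC25A25/SLC25A24 lie more than 1 unit below 0 and those of SLC25A12/SLC25A13 more than 1 unit above it. The points of the ADP/ATP carriers mix, and those with SLC25A6 rest on an uncertain count.

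Taken as one pool, carrier mRNA was lower in sh-KIF11. The summed level of all 48 members was 2837 ± 38.8 CPM in sh-ctrl and 2100.2 ± 16.6 CPM in sh-KIF11 (SD, n = 3 each), a ratio of 0.740 with no overlap (two-sided exact permutation test, p = 0.1). Under library totals alone the ratio was 0.869, and on the FPKM scale it was 0.826, from 1115 ± 25.8 to 921 ± 1.76. The FPKM of the whole table also summed to less in sh-KIF11, with a ratio of 0.887. On the CPM scale the family ratio was 0.763 without SLC25A3, SLC25A5 and SLC25A39, the members with most counts, and 0.803 without SLC25A3, SLC25A5 and SLC25A1, choices made after seeing the data. As a share of summed FPKM, SLC25A5 made up 31.5, 30.9 and 29.5% of the pool in sh-ctrl and 31.3, 32.2 and 31.4% of it in sh-KIF11, and so overlapped (exact permutation test, two-sided, p = 0.3, adjusted p = 0.411 over the 48 members). SLC25A3 followed with 22.5% ± 0.393 and 21.1% ± 0.190. The pool, and so each share, includes SLC25A6 with its uncertain level. The shares of SLC25A1 and SLC25A33 dropped without overlap, from 7.32% ± 0.205 to 5.52% ± 0.147 and from 5.59% ± 0.146 to 3.50% ± 0.198. The shares of SLC25A46 and SLC25A24 grew without overlap, from 0.720% ± 0.0505 to 1.47% ± 0.0650 and from 0.544% ± 0.0847 to 1.09% ± 0.102. Each of these 4 shifts had p = 0.1 in the exact permutation test (two-sided, adjusted p = 0.16). The shares of many other members did not overlap either, so such separation was not particular to these 4. Among them SLC25A39 (7.89% to 8.48%) and SLC25A20 (0.919% to 1.37%) grew, and SLC25A3 and SLC25A10 (5.08% to 4.66%) dropped.

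**Figure D4:**
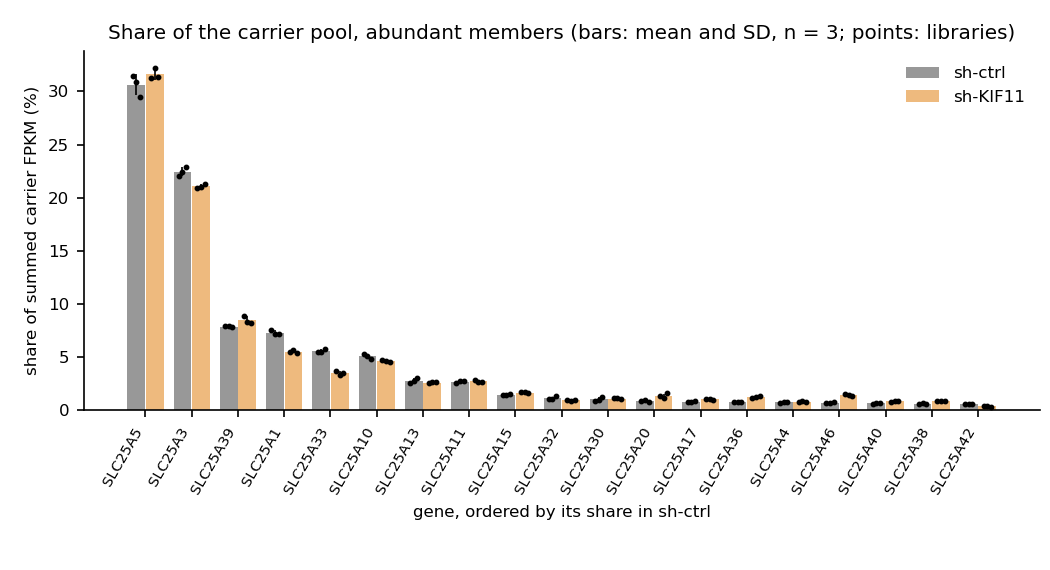
Share of 19 abundant carriers in the summed carrier FPKM (y axis, percent), as group means with SD bars and points for the 3 libraries. SLC25A5 and SLC25A3 together hold 53.1% of the pool in sh-ctrl and 52.7% in sh-KIF11, although SLC25A3 alone goes from 22.5% to 21.1%. SLC25A1 and SLC25A33 lose share as well. SLC25A46, SLC25A39, SLC25A20 and SLC25A36 are among those that gain it.

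The direction of change followed the level. Of the 10 members with the highest mean FPKM (11.4 to 316), 9 were lower and 1 (SLC25A20) was not called, with a median log2 fold change of -0.54. Among the other 31 tested members, 10 were lower, 9 higher and 12 not called, with a median of -0.10. The same trend ran through the whole table: 58.4% of the 4266 tested genes above the lowest FPKM of these 10 were lower and 20.1% higher, against 22.2% and 41.9% of the 8103 genes at or below it. Spearman's rho between mean FPKM and log2 fold change was -0.47 over the 41 members and -0.43 over the 12369 genes, across genes that share libraries and are not independent replicates. The part of level in the carrier changes was not tested further.

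**Figure D5:**
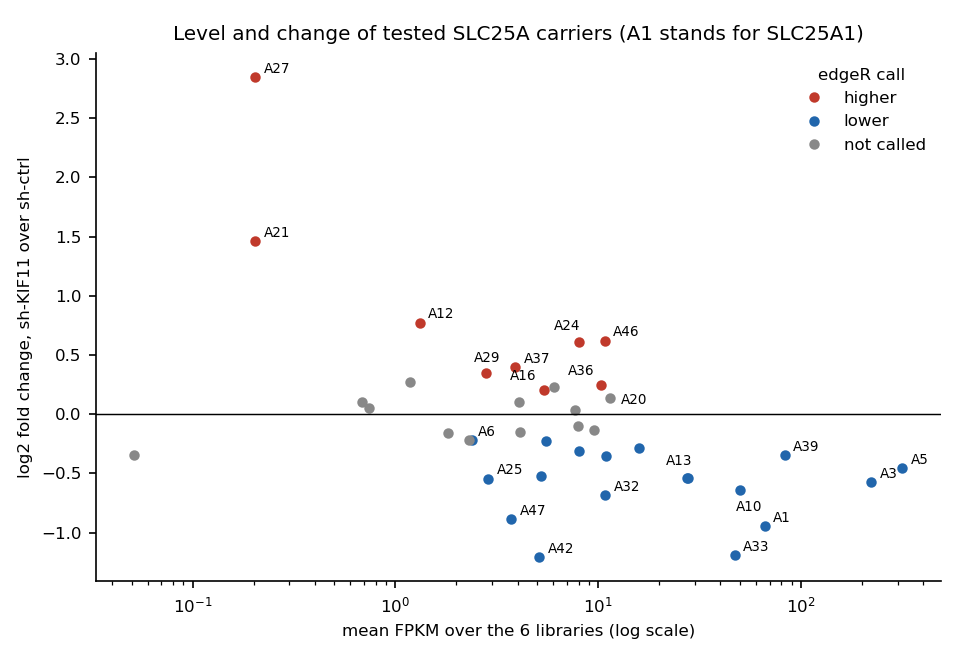
Mean FPKM over the 6 libraries (x axis, log scale) against log2 fold change (y axis) for 40 tested carriers, coloured by call. All members drawn above 12 FPKM lie below 0, and the members with the largest positive changes, SLC25A27 and SLC25A21, lie at 0.203 and 0.204 FPKM. Both passed the filter on low counts only through their sh-KIF11 libraries.

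Genes that work beside the carriers were counted by list in the same fit, beside the 34.7% lower and 34.4% higher of all tested genes. Many of the listed genes were abundant, and of all tested genes above 11.45 FPKM 58.4% were lower and 20.1% higher. The part of level in the counts by list was not tested. Of 16 genes that import carriers into mitochondria, 10 were lower, 5 were not called and 1 was higher, with a median log2 fold change of -0.35. TIMM10, a small chaperone of the space between the membranes, went from 33.0 ± 1.36 to 20.8 ± 1.16 CPM (log2 fold change -0.67), and TIMM8B from 43.6 ± 1.07 to 31.6 ± 1.67 CPM (-0.46). The exception was TIMM22, the channel that inserts the carriers (log2 fold change 0.19, adjusted p = 0.0239), named after its value was seen. All 3 tested carriers of the family that have other symbols were lower, namely UCP2 (log2 fold change -0.55), MTCH2 (-0.41) and MTCH1 (-0.41). Among 14 genes of other mitochondrial transport, 10 were lower, 3 higher and 1 not called. MPC1, a subunit of the pyruvate carrier, had 106, 107 and 116 CPM in sh-ctrl and 35.8, 32.3 and 29.6 CPM in sh-KIF11, with a larger log2 fold change (-1.75, adjusted p = 1.26e-25) than that of any SLC25A member that was lower. Its partner MPC2 fell from 86.5 ± 6.27 to 53.3 ± 2.07 CPM (log2 fold change -0.70). The 3 that were higher, named after their values were seen, were CPT1A, the entry enzyme of fat oxidation (log2 fold change 0.48), SFXN5 (0.29) and MCU (0.29). Of 7 tested enzymes of the malate-aspartate and citrate shuttles, 6 were lower and ME2 was higher (log2 fold change 0.28). ACLY, which splits the citrate exported by SLC25A1, fell from 572 ± 36.1 to 325 ± 8.17 CPM (log2 fold change -0.81), and MDH2 had a log2 fold change of -0.45. Of 11 regulators of mitochondrial biogenesis, 5 were lower, 3 higher and 3 not called. PPARGC1A, the coactivator PGC-1alpha, had 24.7, 25.6 and 26.6 CPM in sh-ctrl and 11.2, 11.3 and 10.7 CPM in sh-KIF11 (log2 fold change -1.21, adjusted p = 1.48e-15). PPARGC1B, its relative, had only 1.46 ± 0.815 and 2.35 ± 0.152 CPM (log2 fold change 0.67, adjusted p = 0.0327), and GABPA and TFAM, the others that were higher and named after their values were seen, had log2 fold changes of 0.59 and 0.17.

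The remaining 7 members were too low to test. SLC25A2, SLC25A18, SLC25A31, SLC25A48 and SLC25A52 had at most 3 counts in any library, so that no difference was detectable at this depth. SLC25A34 was counted 0, 1 and 3 times in sh-ctrl and 7, 10 and 0 times in sh-KIF11, and SLC25A41, a short ATP-Mg/phosphate carrier, had 2, 6 and 1 and then 1, 0 and 3. Both overlapped between the groups.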

How the data were processed

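Stranded RNA-seq libraries from poly(A) RNA of HepG2 cells, 3 per group, were compared. The authors deposited raw read counts per gene and a table of FPKM values, scaled by them to transcript length and library size. The submitters' processing notes list bcl2fastq 1.8.4, Trimmomatic, HISAT2 2.1.0, Cufflinks 2.2.1, HTSeq 0.9.1, DESeq and the builds GRCh38 and hg38; the annotation and the strand setting of the counts are not given in the sources used here. Exons of 21 members overlap another gene of GENCODE 29, 10 of them an opposite-strand gene of the table, so such counts carry some uncertainty. Knockdown columns are named only shRNA and were mapped by number, since the labels list no other hairpin.

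Counts were fitted in R 4.3.3 with edgeR 4.0.16 (TMM, filterByExpr, group as the only term, quasi-likelihood test, Benjamini-Hochberg adjustment over 12369 genes, threshold 0.05), after tests on simulated data. Alternatives used DESeq2 1.42.0, limma 3.58.1 on log2(FPKM + 1) and log2(FPKM + 0.1), other scalings and filters, a replicate block and each library left out. Values by library are given for the 6 called members with the largest rises and the 6 with the largest falls at a mean of at least 1 CPM, the 6 highest in FPKM, and the genes of the 4 pairs whose ratio changed most; of each further list, the 2 called genes with the largest change. Members and lists were chosen with earlier results of these data known. One tested member is counted in the totals but is not reported here by name or value, nor drawn. Figures were drawn with matplotlib.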

Additional observations from a re-analysis of the deposited data

How the results depend on the processing

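The count of called members stayed between 26 and 30 over all alternatives run, and the 22 called members other than SLC25A4, SLC25A15, SLC25A16, SLC25A23, SLC25A28 and SLC25A30 kept their direction and call in every alternative that tested them. A steady count is not a steady set. Under library totals alone 28 members were called, but only 23 of the 28 called with TMM kept direction and call, and others were called in their place. Members called higher numbered 9 with TMM and 14 under library totals alone, and also 14 in both limma fits, which differ in unit, model and genes tested as well as in scaling. The members' median log2 fold change was -0.13 with upper-quartile normalization, 0.02 with library totals alone, -0.011 with limma on log2(FPKM + 1) and -0.030 with limma on log2(FPKM + 0.1), against -0.21; the median of all genes moved along, to 0.08, 0.24, 0.05 and 0.14. The summed family log2 ratio, -0.43, was -0.20 with library totals alone, -0.32 without SLC25A3, SLC25A5 and SLC25A1 and -0.39 without SLC25A3, SLC25A5 and SLC25A39, the latter choices made after seeing the data. Among the called members, SLC25A23 reversed to 0.003544 (library totals alone) and 0.000284 (limma, log2(FPKM + 1)), and SLC25A28 to 0.017196 with library totals alone. Leaving out 1 library gave 27 to 28 called, 8 to 9 higher, 18 to 19 lower, a median from -0.25 to -0.16, and a summed ratio from -0.44 to -0.42. Same-numbered libraries did not deviate together (correlations of 0.0338, -0.0257 and 0.002), so the numbers were not taken as pairs; with a replicate block 28 members were called, 9 higher and 19 lower, and no member's call changed. Depth limits the 7 untested members and SLC25A21 and SLC25A27.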
